A study of Mus musculus with 48 samples.

Results

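The 6 genes described here encode the myosin heavy chains that set the fibre type of striated muscle: Myh1 (type IIx), Myh2 (type IIa), Myh3 (embryonic), Myh4 (type IIb), Myh7 (slow, type I) and Myh8 (perinatal). They were chosen by their gene name, and all 6 were found among the 46983 genes of each of 2 deposited tables. The skin table holds 43 libraries of whole skin from C57BL/6 mice, taken from 3 domains (chin, ventral and dorsal) in 6 stages of the hair cycle. In the order in which they follow each other these are the resting stage ready to start again (competent telogen), 3 growth stages (early anagen, mid-anagen and late anagen), regression (catagen) and the resting stage that does not yet respond (refractory telogen). The 18 domain and stage groups have 2 or 3 libraries each. The ear table holds 7 libraries: 3 of the ear cartilage/muscle complex, 2 of ear skin in telogen and 2 of dorsal skin in competent telogen, which repeat the values of the skin table, so that 48 libraries are distinct. The labels name no transgene and no treatment, and neither their ages nor whether the libraries of a group came from separate mice is given, so that p-values measure the spread between libraries, which may be technical.

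A myosin heavy chain is the motor of the thick filament, and its isoform sets how fast a fibre contracts and how it is fuelled. Adult limb and trunk muscle is built from type I fibres, which are slow and oxidative, and from type IIa, IIx and IIb fibres, which are fast and in that order more glycolytic. Embryonic and perinatal chains are made in developing and regenerating muscle and persist in some specialised head muscles. Mouse skin is underlain by the panniculus carnosus, a thin sheet of striated muscle that moves the skin, and the auricle carries small muscles attached to its cartilage.

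In GENCODE vM21 on GRCm38, the build of the deposited data, Myh3 (chr11:67078300-67102291), Myh2 (chr11:67171027-67197517), Myh1 (chr11:67200052-67224575), Myh4 (chr11:67238029-67260446) and Myh8 (chr11:67277124-67308634) lie in this order on the plus strand, and Myh7 lies on the minus strand at chr14:54970684-54994626. Their identifiers are ENSMUSG00000020908.14 (Myh3), ENSMUSG00000033196.17 (Myh2), ENSMUSG00000056328.14 (Myh1), ENSMUSG00000057003.12 (Myh4), ENSMUSG00000055775.16 (Myh8) and ENSMUSG00000053093.15 (Myh7), and the longest transcripts have 39 to 41 exons over 6016 to 6230 bases. The 150 bases before the RefSeq transcript start (build GRCm38.p6, plus strand for chromosome 11 and minus strand for Myh7) are shown for 5 genes, since these genes moved in different groups although 4 of them are neighbours. Capitals mark matches on either strand to the E-box CANNTG, to TATAAA, to the MEF2 site and to the CArG box, of which TATAAA is a general core promoter element and the others are known from muscle promoters.
Myh4 (chr11:67237662-67237811): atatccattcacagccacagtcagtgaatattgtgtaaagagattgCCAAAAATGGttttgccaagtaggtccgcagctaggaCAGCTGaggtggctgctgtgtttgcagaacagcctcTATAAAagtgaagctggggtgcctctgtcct
Myh1 (chr11:67199952-67200101): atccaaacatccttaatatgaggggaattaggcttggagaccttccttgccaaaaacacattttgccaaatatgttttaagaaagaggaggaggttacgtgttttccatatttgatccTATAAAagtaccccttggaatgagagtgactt
Myh2 (chr11:67170877-67171026): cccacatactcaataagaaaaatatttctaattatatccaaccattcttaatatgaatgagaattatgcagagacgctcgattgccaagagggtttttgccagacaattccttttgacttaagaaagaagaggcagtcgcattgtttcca
Myh7 (chr14:54994627-54994776): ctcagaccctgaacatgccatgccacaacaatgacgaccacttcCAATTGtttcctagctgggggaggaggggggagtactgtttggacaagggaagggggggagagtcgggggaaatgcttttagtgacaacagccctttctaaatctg
Myh8 (chr11:67276974-67277123): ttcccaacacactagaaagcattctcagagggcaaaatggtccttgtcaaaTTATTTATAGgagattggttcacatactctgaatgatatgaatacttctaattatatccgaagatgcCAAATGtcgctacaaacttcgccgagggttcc
TATAAA began 31 bases before the start of Myh4, 32 before that of Myh1 and 29 before that of Myh3, and TATAAA was present in 7.56% of 32544 promoter windows of the same length. The window of Myh4 also held an E-box, as did 47.6% of all windows, and a CArG box, as did 0.922%. The windows of Myh7 and Myh8 held 1 E-box each. The window of Myh8 held a MEF2 site, present in 1.63% of all windows, and the TATAAA match on its other strand lies inside that site. No match was found in the window of Myh2, which says only that these letters are not there.

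Levels are given as FPKM, a fragment count divided by transcript length and library depth, as the authors deposited them. The steps between low FPKM values gave an estimated 6850313 to 29262135 fragments per library, with a median of 12875095. In the skin libraries, 1 fragment of Myh1 was worth between 0.00634 and 0.0248 FPKM. These steps and limits cover counting error only. Tests were made on log2(FPKM + 1) with limma, so that a log2 difference understates the change of a low gene, and a gene was called at an adjusted p under 0.05 over all genes tested. In the skin, 21257 genes with at least 0.5 FPKM in 2 libraries were tested, and 5 of the 6 members were among them. Myh3 was below this minimum throughout the skin. Myh7 passed it only through its 4 libraries of dorsal early anagen and dorsal catagen, so that its differences from these groups are given as a description, without a p-value. Its p-values between other groups come from levels under 0.5 FPKM, below this minimum. The first library of ventral catagen carries an ear location in 1 label, against its title and source name, and was kept as ventral skin. In bulk tissue, fewer fibres and less RNA per fibre cannot be told apart. How much underlying muscle each sample took is not given in the sources used here. It cannot be told apart from a difference of stage or domain.

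Among the 6 genes, the fast adult chains held most of the RNA in the skin. Myh1, Myh2 and Myh4 together held between 85.2% and 99.9% of the summed FPKM of the 6 genes in the 43 skin libraries, with a median of 98.9%. The 8 other myosin heavy chains, among them the nonmuscle and smooth muscle forms, summed to 26.0 to 51.6 FPKM over the skin libraries, and in ventral competent telogen to 37.3 to 40.3, against 5.83 to 6.43 for the 6 genes. Myh4 ranged from 1.70 to 240.35 FPKM with a median of 15.1, Myh1 from 2.07 to 152 with a median of 7.45, and Myh2 from 0.21 to 19.6 with a median of 1.13. Between the lowest and the highest group mean, Myh4 differed 111-fold, Myh2 58.4-fold and Myh1 50.2-fold. The slow myosin Myh7 was listed at 0 in 12 libraries and reached 0.5 FPKM in 4, and the perinatal Myh8 reached 0.5 FPKM in 6. The embryonic Myh3 was listed at 0 in 23 of 43 libraries and never exceeded 0.07 FPKM, at most about 4 fragments. A count of 0 allows up to 3 fragments, which for Myh3 were 0.0192 to 0.075 FPKM, depending on the library.

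**Figure D1:**
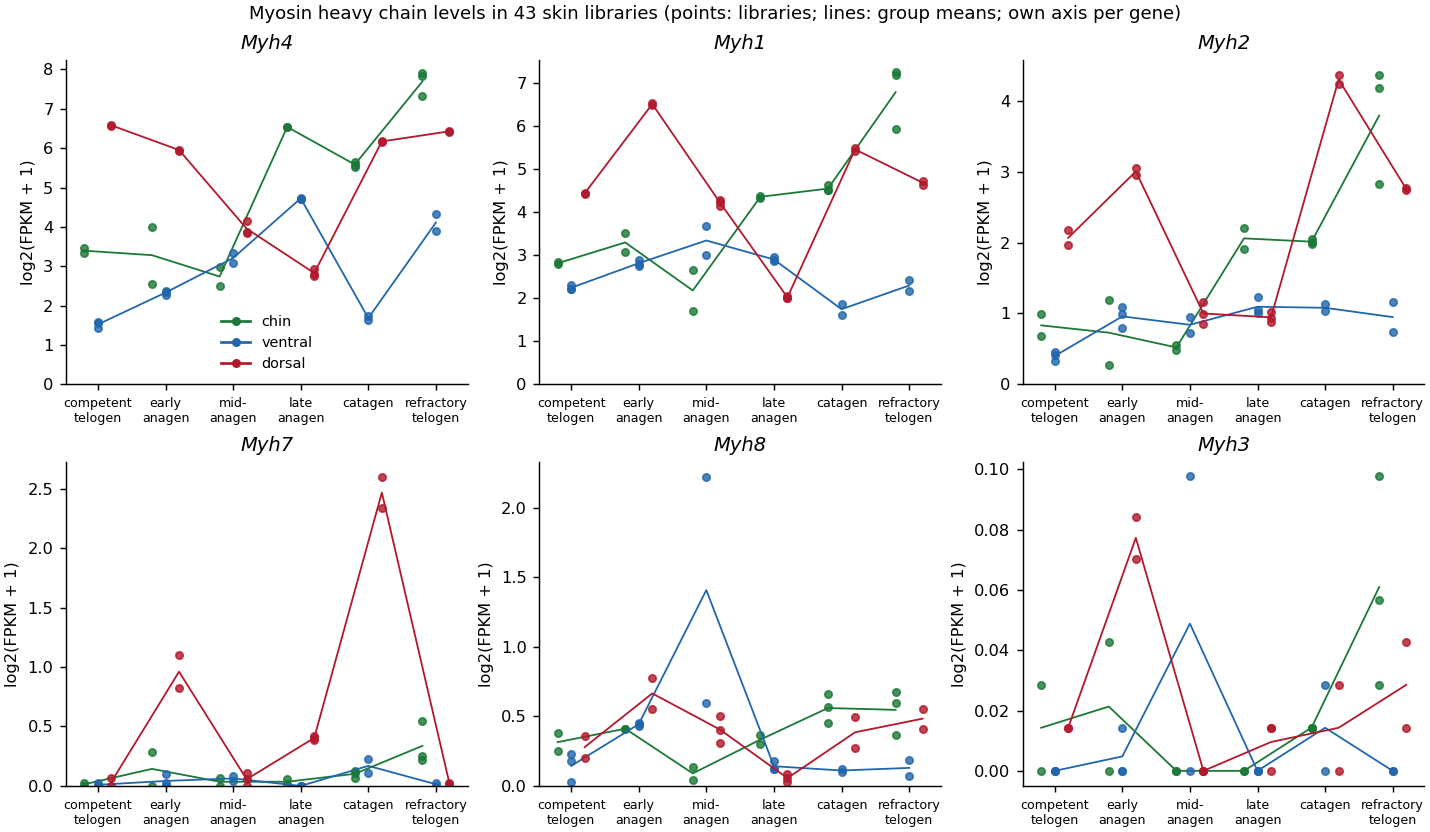
Levels of the 6 genes in 43 skin libraries, as log2(FPKM + 1) on an axis of its own for each gene, against hair cycle stage, with a point for each library, a colour for each domain and a line through the group means. Myh4 and Myh1 peak in chin refractory telogen, Myh7 is highest in dorsal catagen and next in dorsal early anagen, and the high point of Myh8 in ventral mid-anagen is 1 library of 2.

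Which gene led differed between groups. Myh4 was the most abundant of the 6 in every library of 11 groups, Myh1 in every library of 4 groups, and the lead was split between libraries in 3 groups, chin early anagen, ventral mid-anagen and ventral catagen. Myh1 led in ventral competent telogen, ventral early anagen, dorsal early anagen and dorsal mid-anagen. The ratio of Myh1 to Myh4 ran from 0.208 in a chin late anagen library to 2.14 in a ventral competent telogen library. Myh4 held its largest mean share in chin late anagen, 80.0% in both libraries, and Myh1 its largest in ventral competent telogen, 61.9% ± 0.529 (SD, n = 3). Myh2 held 18.9% ± 2.05 (SD, n = 2) in ventral catagen and 13.6% ± 0.354 (SD, n = 2) in dorsal catagen, against 2.69% to 8.83% in the other 16 groups. In ventral skin mean Myh2 was 1.14 FPKM in late anagen and 1.11 in catagen, while Myh4 went from 25.5 to 2.21. In dorsal skin Myh2 itself went from 0.927 to 18.7 FPKM. The ventral catagen library whose labels conflict held 17.4% of Myh2, and the other 20.3%. The shares are descriptions and were not tested.

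**Figure D2:**
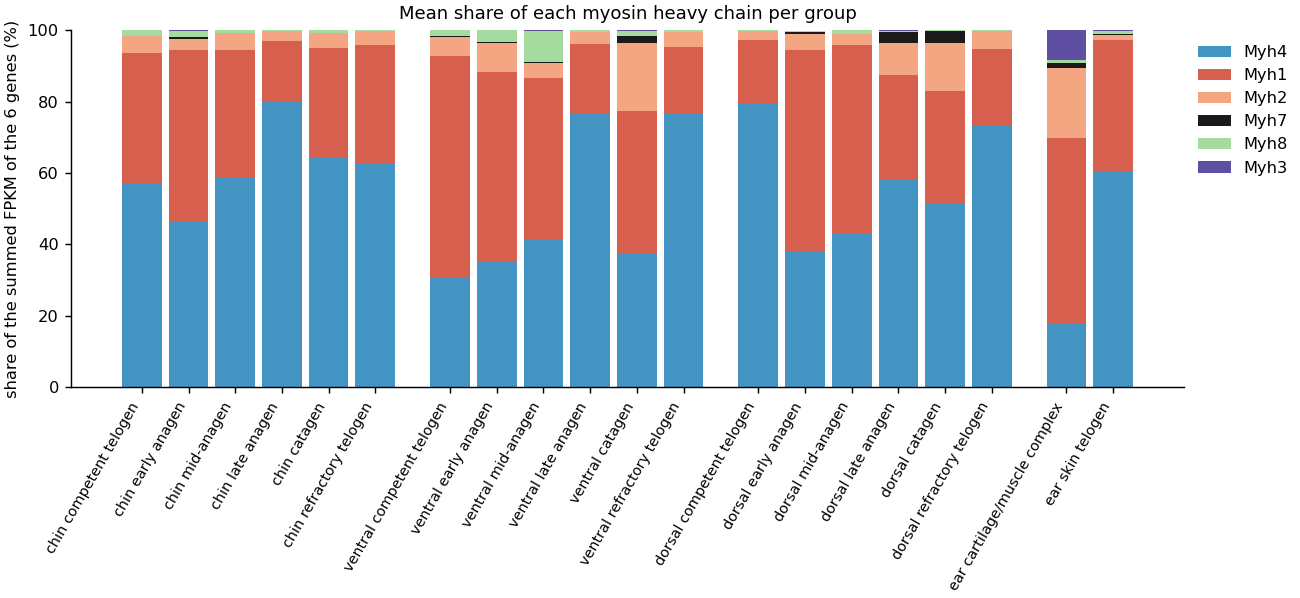
Mean share of each gene in the summed FPKM of the 6 genes (percent), per group, with 18 skin groups and the ear tissues of the ear table. Myh4 and Myh1 fill most of every skin bar, Myh2 widens in ventral and dorsal catagen, and Myh3 is visible in the ear cartilage/muscle complex, at 8.25%.

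The order of the groups shows how far apart the levels were. For Myh4, chin refractory telogen was followed by dorsal competent telogen, chin late anagen, dorsal refractory telogen, dorsal catagen, dorsal early anagen, chin catagen and ventral late anagen, and no neighbours in this series overlapped. The groups from ventral refractory telogen down to ventral mid-anagen overlapped with their neighbours. For Myh1, chin refractory telogen and dorsal early anagen came first and overlapped, followed by dorsal catagen, dorsal refractory telogen, chin catagen, dorsal competent telogen, chin late anagen and dorsal mid-anagen without overlap. For Myh2, dorsal catagen, chin refractory telogen and dorsal early anagen came first, and the chin libraries overlapped with both dorsal groups. For Myh7, dorsal catagen, dorsal early anagen and dorsal late anagen came first, and from dorsal late anagen downwards the groups overlapped.

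In dorsal skin, Myh1 and Myh4 moved through the hair cycle along different courses. Myh1 was 20.8 and 20.6 FPKM in the libraries of competent telogen, 89.0 and 92.1 in early anagen, 16.8 to 18.6 in mid-anagen, 3.03, 3.15 and 3.01 in late anagen, 44.4 and 41.8 in catagen and 25.6 and 24.0 in refractory telogen. Myh4 was 95.8 and 93.65 FPKM in competent telogen, 60.4 and 61.5 in early anagen, 13.5, 13.45 and 16.8 in mid-anagen, 5.75, 5.94 and 6.65 in late anagen, 72.2 and 70.1 in catagen and 84.4 and 86.0 in refractory telogen. Both were lowest in late anagen, while Myh1 was highest in early anagen and Myh4 in competent telogen. Levels differed between the stages for Myh1, Myh2 and Myh4 (limma F-test, adjusted p from 5.81e-15 to 2.29e-11), as they did for 68.5% of all genes tested.

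From competent telogen to early anagen of dorsal skin, 43.4% of all genes were called, and Myh1 and Myh2 rose while Myh4 fell. Myh1 rose by 2.08 ± 0.27 on the log2 scale (SE, adjusted p = 5.59e-07) and Myh2 by 0.94 ± 0.29 (adjusted p = 0.00957). Myh4 fell by 0.63 ± 0.25 (adjusted p = 0.04). Myh7 was 0.05 and 0 FPKM in competent telogen and 1.14 and 0.77 in early anagen, a log2 difference of 0.93 ± 0.11. The median over all genes was 0.25 in this step, and the call of Myh2 was lost when libraries were scaled by the median of ratios (0.57, adjusted p = 0.112) and without the second library of competent telogen or the first of early anagen (0.0757 and 0.0562). The call of Myh4 was lost with a pseudocount of 0.1 (adjusted p = 0.0589), without a filter (0.0674), in TPM (0.191) and without any 1 of the 4 libraries (0.108 to 0.129).

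From dorsal early anagen to mid-anagen, where 39.2% of all genes were called, Myh1 fell by 2.29 ± 0.25, Myh2 by 2.00 ± 0.26 and Myh4 by 2.00 ± 0.22 on the log2 scale (adjusted p from 2.18e-08 to 6.01e-07), and the difference of Myh7 was -0.90 ± 0.10. Markers of other cell types fell with them, with 6 of 6 adipocyte genes (summing to 799 to 943 FPKM, then 312 to 336) and 6 of 6 smooth muscle genes (225 to 257, then 105 to 110), and their part in the result was not tested. From mid-anagen to late anagen, where 2.68% of all genes were called, Myh1 fell by 2.21 ± 0.22 (adjusted p = 6.1e-08) and Myh4 by 1.13 ± 0.20 (adjusted p = 0.000637). Myh7 rose by 0.35 ± 0.09 in that step (adjusted p = 0.0215), from at most 0.08 FPKM to 0.31 to 0.34. That call was lost without 5 of the 6 libraries in turn (adjusted p from 0.0668 to 0.0926).

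The largest rise of dorsal skin followed, from late anagen to catagen, where 38.7% of all genes were called. Myh1 rose by 3.44 ± 0.25, Myh2 by 3.35 ± 0.26 and Myh4 by 3.34 ± 0.22 on the log2 scale (adjusted p from 1.59e-12 to 3.75e-11), and the difference of Myh7 was 2.06 ± 0.10. Myh2, the type IIa chain, was 19.5 and 17.9 FPKM in dorsal catagen and 0.84, 0.91 and 1.03 in late anagen. Myh7 was 5.05 and 4.05 FPKM in dorsal catagen, about 321 and 246 fragments, above every other skin library. Epidermal markers summed to 4070 to 4180 FPKM in late anagen and 2360 to 2420 in catagen, with 2 of 6 genes lower and none higher. Adipocyte markers went from 513 to 565 FPKM to 761 to 805, with 2 of 6 genes higher and 2 lower. Their part in the result was not tested. From catagen to refractory telogen, where 43.7% of all genes were called, Myh2 fell by 1.54 ± 0.29 (adjusted p = 6.34e-05) and Myh1 by 0.78 ± 0.27 (adjusted p = 0.0217), the last call being lost without any 1 of the 4 libraries (0.0608 to 0.0981). The difference of Myh7 was -2.45 ± 0.11, to 0.01 and 0.02 FPKM. Myh4 differed by 0.26 ± 0.25 and was not called (adjusted p = 0.444).

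In chin skin, the fast myosins were low through mid-anagen and high from late anagen on. Myh4 was 10.0 and 9.06 FPKM in competent telogen, 4.87 and 15.1 in early anagen, 6.89 and 4.65 in mid-anagen, 92.7 and 91.5 in late anagen, 45.3, 49.6 and 46.3 in catagen and 240.35, 161 and 227 in refractory telogen. Myh1 was 6.15 and 5.92 FPKM in competent telogen, 7.45 and 10.5 in early anagen, 5.32 and 2.26 in mid-anagen, 19.3 and 19.8 in late anagen, 21.8, 23.8 and 21.8 in catagen and 152, 59.9 and 145 in refractory telogen. The late anagen, catagen and refractory telogen libraries were above all earlier libraries for both genes. Levels differed between the stages for Myh1, Myh2 and Myh4 (limma F-test, adjusted p from 4.75e-17 to 2.69e-11), as for 66.2% of all genes. Myh7 was also called in this test (adjusted p = 0.0259), at chin levels of 0.46 FPKM or less. That call was lost without the second library of refractory telogen (0.266).

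No member was called from chin competent telogen to early anagen, where 2.14% of all genes were called by limma, and none of the 5 had an unadjusted p under 0.05. From early to mid-anagen, with 18.1% of all genes called, Myh1 fell by 1.12 ± 0.27 on the log2 scale (adjusted p = 0.00504), a call lost without the second library of early anagen (0.0741) or of mid-anagen (0.147). From mid- to late anagen, with 19.7% called, Myh4 rose by 3.80 ± 0.25, Myh1 by 2.18 ± 0.27 and Myh2 by 1.54 ± 0.29 (adjusted p of 1.1e-11, 1.05e-06 and 0.000294). Adipocyte markers rose in the same step, in 6 of 6 genes, from 396 to 681 FPKM to 1470 to 1680, and their part in the result was not tested. From late anagen to catagen, with 13.1% called, Myh4 fell by 0.95 ± 0.22 (adjusted p = 0.00483), a call lost without the first library of late anagen (adjusted p = 0.0534).

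From chin catagen to refractory telogen, where 48% of all genes were called, 4 members rose. Myh1 rose by 2.24 ± 0.22, Myh4 by 2.11 ± 0.20 and Myh2 by 1.78 ± 0.24 on the log2 scale (adjusted p from 8.32e-10 to 3.13e-07). The second library of chin refractory telogen was lower than the other 2 in these 3 genes, with 59.9 FPKM of Myh1, and without it the rises were 2.67, 2.29 and 2.26. Myh7 rose by 0.24 ± 0.09 (adjusted p = 0.0266, and 0.0516 to 0.238 without any 1 of 3 of the 6 libraries), from 0.05, 0.08 and 0.09 FPKM to 0.19, 0.46 and 0.16. Without that same library, where Myh7 was highest, the rise of Myh7 was 0.13 (adjusted p = 0.238) and its stage test in the chin gave an adjusted p of 0.266. Markers of other cell types moved with this step. The sum of 6 adipocyte markers went from 806 to 973 FPKM to 4090 to 4350, with 6 of 6 genes higher. Smooth muscle genes were higher in 5 of 6 (66.4 to 73.3 FPKM, then 80.4 to 112), epidermal genes were higher in 4 of 6 and lower in 1 (3480 to 3820, then 5590 to 6010), and their part in the result was not tested.

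In ventral skin the levels were lower and Myh4 moved most. Myh4 was 1.70, 1.94 and 1.99 FPKM in competent telogen, 4.10, 3.81 and 4.20 in early anagen, 7.41 and 9.19 in mid-anagen, 25.4, 25.2 and 25.8 in late anagen, 2.09 and 2.34 in catagen and 19.1 and 13.9 in refractory telogen. Myh1 stayed between 2.07 FPKM, in catagen, and 11.7, in mid-anagen. The late anagen libraries of Myh4 were above all other ventral libraries. Adipocyte markers summed to 1010 to 1590 FPKM in competent telogen, 899 to 945 in early anagen, 803 to 1100 in mid-anagen, 210 to 218 in late anagen, 818 to 876 in catagen and 2600 to 4400 in refractory telogen, opposite to Myh4 in the steps into and out of late anagen and with it in the step into refractory telogen. In that last step 5 of 6 smooth muscle genes were also higher and epidermal genes were higher in 4 of 6 and lower in 2, and the part of these cell types was not tested. Levels differed between the stages in the limma F-test for Myh4 (adjusted p = 1.41e-13), Myh1 (adjusted p = 6.42e-05) and Myh8 (adjusted p = 7.97e-05), as for 70.2% of all genes. Myh2 was not called (adjusted p = 0.103), although it was called with a pseudocount of 0.1 (0.00427) and with median of ratios (0.0318).

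From ventral competent telogen to early anagen, with 42.5% of all genes called, Myh4 rose by 0.81 ± 0.20 on the log2 scale (adjusted p = 0.00163) and Myh1 by 0.57 ± 0.22 (adjusted p = 0.04), the latter call being lost without a filter (0.063) and without any 1 of the 6 libraries (0.057 to 0.1). From early to mid-anagen, with 42.4% called, Myh4 rose by 0.88 ± 0.22 (adjusted p = 0.00212), and from mid- to late anagen, with 24.2% called, by 1.52 ± 0.22 (adjusted p = 1.17e-05). From late anagen to catagen, with 5.93% called, the log2 difference was -3.04 ± 0.22 for Myh4 (adjusted p = 4.4e-10) and -1.16 ± 0.25 for Myh1 (adjusted p = 0.00387), the latter call being lost without the second library of catagen (0.0766). From catagen to refractory telogen, with 33.6% called, Myh4 rose by 2.43 ± 0.25 (adjusted p = 1.16e-08) while Myh1 differed by 0.55 ± 0.27 and was not called (adjusted p = 0.127). Without the ventral catagen library whose labels conflict, these 3 called values of catagen were -2.99 and 2.37 for Myh4 and -1.28 for Myh1 (adjusted p from 3.44e-07 to 0.0194).

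Myh8, the perinatal chain, was at most 0.71 FPKM in 42 of the 43 skin libraries. The exception was the second library of ventral mid-anagen, with 3.66 FPKM or about 221 fragments, where the first had 0.51. The calls of Myh8 in the ventral steps into mid-anagen (a rise of 0.96 ± 0.22 on the log2 scale, adjusted p = 0.00078) and out of it (a fall of 1.27 ± 0.22, adjusted p = 0.0001) carry that library. Without it they were 0.15 (adjusted p = 0.409) and -0.45 (adjusted p = 0.0133). Myh8 was also called at mid-anagen as higher in ventral than in dorsal skin, by 1.00 ± 0.22 (adjusted p = 0.00111), and without that library the difference was 0.19 (adjusted p = 0.341). In chin against ventral skin it was -1.32 ± 0.24 (adjusted p = 0.000256), and -0.50 without that library (adjusted p = 0.0129). Both calls were lost in a fit on the libraries of that stage alone (0.152 against dorsal skin and 0.129 for the chin).

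Across domains, averaged over the 6 stages with equal weight, ventral skin had less fast myosin than the others. Ventral minus dorsal, where 37.5% of all genes were called, was on the log2 scale -2.39 ± 0.09 for Myh4, -2.00 ± 0.10 for Myh1 and -1.46 ± 0.11 for Myh2 (SE, adjusted p from 6.14e-17 to 2.12e-11), with -0.61 ± 0.04 for Myh7. Chin minus ventral, with 23.7% called, was 1.94 ± 0.09 for Myh4, 1.44 ± 0.10 for Myh1 and 0.77 ± 0.11 for Myh2 (adjusted p from 4.29e-15 to 5.41e-06). Chin minus dorsal, with 26.8% called, was -0.69 ± 0.11 for Myh2, -0.56 ± 0.11 for Myh1 and -0.45 ± 0.09 for Myh4 (adjusted p from 3.42e-05 to 0.000769), with -0.55 ± 0.04 for Myh7. The mean FPKM of Myh4 over the stages was nevertheless higher in chin, 62.3 against 55.45 in dorsal skin, so that mean and test differ in sign. Myh8 was not called in any of these 3 comparisons.

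**Figure D3:**
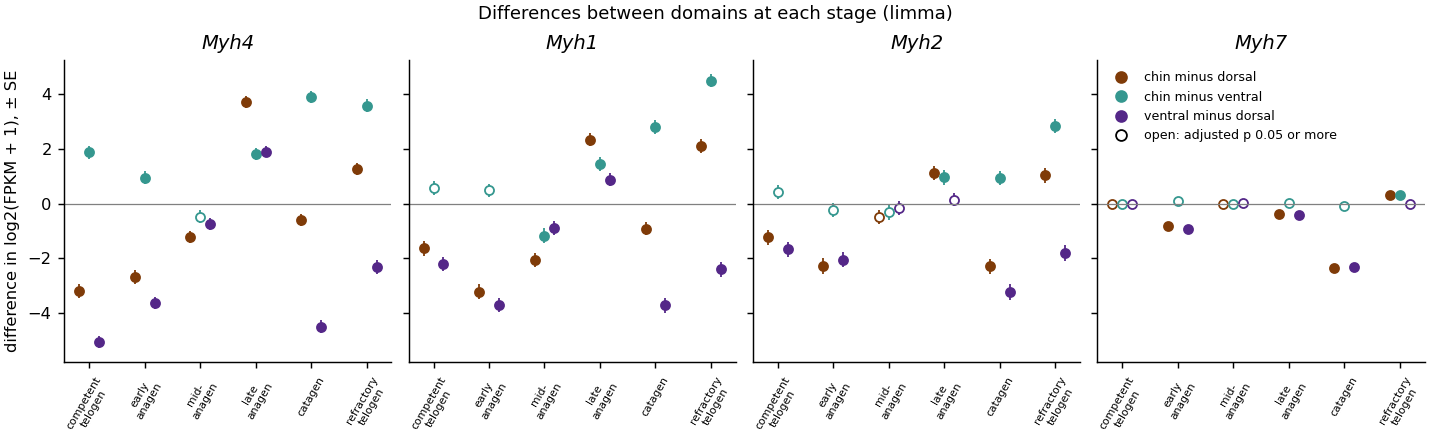
Differences between domains at each stage for Myh4, Myh1, Myh2 and Myh7, in log2(FPKM + 1) with SE from limma, with filled points for an adjusted p under 0.05. For Myh7 the differences from dorsal early anagen and dorsal catagen are a description. Chin minus dorsal lies below 0 up to mid-anagen, above 0 for Myh4, Myh1 and Myh2 in late anagen, below 0 in catagen and above 0 in refractory telogen.

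The direction between chin and dorsal skin turned over the cycle, and stage by domain interaction was called for Myh4, Myh1, Myh2 and Myh8 (adjusted p of 5.49e-17, 1.47e-14, 4.43e-10 and 0.0017), as for 73.3% of all genes. The 6 adipocyte markers also changed direction in this comparison, though not at every stage with the myosins, with medians of chin minus dorsal of -1.55 in competent telogen (6 lower), -1.02 in early anagen (6 lower), 0.59 in mid-anagen (4 higher), 1.26 in late anagen (5 higher), 0.05 in catagen (2 higher) and 3.76 in refractory telogen (6 higher), and their part in the result was not tested. At competent telogen the chin was lower than dorsal skin by 3.18 ± 0.25 on the log2 scale in Myh4, 1.63 ± 0.27 in Myh1 and 1.23 ± 0.29 in Myh2 (36.7% of all genes called). At late anagen the chin was higher by 3.71 ± 0.22 in Myh4, 2.34 ± 0.25 in Myh1 and 1.11 ± 0.26 in Myh2 (19.5% called), while Myh7 was lower by 0.37 ± 0.10 (adjusted p = 0.0073). The adjusted p of the 3 fast genes ranged from 3.57e-11 to 0.00124 at competent telogen and from 1.07e-12 to 0.00301 at late anagen. Without the first library of chin late anagen the calls of Myh2 and Myh7 were lost (0.0632 and 0.0752).

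At early anagen, chin minus dorsal was -3.22 ± 0.27 for Myh1, -2.67 ± 0.25 for Myh4 and -2.27 ± 0.29 for Myh2 (27% of all genes called, adjusted p from 4.26e-10 to 8.74e-07), with -0.82 ± 0.11 for Myh7. At mid-anagen it was -2.05 ± 0.25 for Myh1 and -1.22 ± 0.22 for Myh4 (17.2% called, adjusted p of 1.07e-06 and 0.000354). At catagen it was -2.29 ± 0.26 for Myh2, -0.91 ± 0.25 for Myh1 and -0.59 ± 0.22 for Myh4 (41.3% called, adjusted p from 3.94e-08 to 0.0371), with -2.36 ± 0.10 for Myh7. The call of Myh4 was lost with a pseudocount of 0.1 (0.0533), without a filter (0.0587), in TPM (0.0947) and without 4 of the 5 libraries in turn (0.0739 to 0.145). Other muscle genes did not all go the same way at catagen. Of 10 fast fibre genes 3 were higher in the chin and 1 lower (median 0.31). Of 10 slow fibre genes 8 were lower and 0 higher (median -1.21). Of 10 sarcomere genes shared by all fibre types 2 were higher and 4 lower (median -0.13). The shared genes summed to 1530 to 1580 FPKM in chin catagen and 1150 to 1210 in dorsal catagen. At refractory telogen chin minus dorsal was 2.10 ± 0.25 for Myh1, 1.27 ± 0.22 for Myh4, 1.03 ± 0.26 for Myh2 and 0.32 ± 0.10 for Myh7 (34.8% called, adjusted p from 1.12e-07 to 0.0117). In that comparison 6 of 6 adipocyte genes (4090 to 4350 FPKM in the chin, 206 or less in dorsal skin) and 5 of 6 smooth muscle genes were also higher in the chin, and their part was not tested. The call of Myh7 was lost without the second library of chin or either of dorsal refractory telogen (0.059 to 0.092), and the call of Myh2 was lost in a fit on the libraries of that stage alone (0.143).

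Ventral skin was below dorsal skin in Myh4 at every stage other than late anagen. Ventral minus dorsal for Myh4 was -5.06 ± 0.22 on the log2 scale in competent telogen (47.9% of all genes called), -3.62 ± 0.22 in early anagen (41.7% called), -0.75 ± 0.22 in mid-anagen (28.3% called) and 1.90 ± 0.20 in late anagen (3.14% called). It was -4.49 ± 0.25 in catagen (35.4% called) and -2.32 ± 0.25 in refractory telogen (13.7% called), and the adjusted p of the 6 stages ran from 1.34e-16 to 0.0131. The values of Myh1 had the same signs, from -3.72 ± 0.27 at catagen to 0.88 ± 0.22 at late anagen (adjusted p from 9.89e-13 to 0.0229). Ventral minus dorsal for Myh2 was -1.67 ± 0.26 in competent telogen, -2.04 ± 0.26 in early anagen, -3.22 ± 0.29 in catagen and -1.81 ± 0.29 in refractory telogen (adjusted p from 6.57e-10 to 4.47e-05), and it was not called in mid-anagen and late anagen. The value of refractory telogen was lost in a fit on that stage alone (0.115). For Myh7 it was -0.40 ± 0.09 in late anagen (adjusted p = 0.00677), and -0.92 ± 0.10 in early anagen and -2.30 ± 0.11 in catagen. Adipocyte genes differed as well, with medians of 3.98 in refractory telogen (6 of 6 higher), 1.27 in mid-anagen (6 higher) and -1.17 in late anagen (6 lower), and of -0.26 to -0.03 at the other stages, and their part was not tested. Without the ventral catagen library whose labels conflict, the catagen values were -4.43 for Myh4, -3.84 for Myh1, and -3.17 for Myh2 (adjusted p from 3.21e-11 to 1.47e-07), with -2.24 for Myh7. At mid-anagen the calls of Myh1 and Myh4 were lost without the first ventral library (0.214 and 0.145), that of Myh4 also without the third dorsal library (0.0562) and that of Myh1 in a fit on that stage alone (0.0926). At late anagen the call of Myh1 was lost without any 1 of the 6 libraries (0.0636 to 0.09).

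Chin was above ventral skin in Myh4 at 5 of 6 stages. Chin minus ventral for Myh4 was 1.87 ± 0.22 on the log2 scale in competent telogen (23% of all genes called), 0.95 ± 0.22 in early anagen (32.9% called) and 1.81 ± 0.22 in late anagen (15.6% called). It was 3.90 ± 0.22 in catagen (5.19% called) and 3.58 ± 0.22 in refractory telogen (30.7% called), and the adjusted p of these 5 stages ran from 7.11e-13 to 0.00145. Adipocyte genes were lower in the chin in competent telogen (6 of 6, median -1.71) and higher in late anagen (6 of 6, median 2.53), with medians from -0.68 to 0.19 at the other stages, and their part was not tested. In mid-anagen (22.1% called) the difference of Myh4 was -0.47 ± 0.25 and was not called (adjusted p = 0.181). The call at early anagen was lost without the second chin library (0.22, adjusted p = 0.423) and in a fit on that stage alone (0.0917), the chin libraries being 4.87 and 15.1 FPKM. For Myh1 it was 4.49 ± 0.25 at refractory telogen, 2.80 ± 0.25 at catagen and 1.46 ± 0.25 at late anagen, and -1.16 ± 0.27 at mid-anagen (adjusted p from 5.16e-14 to 0.00274). Myh1 was not called at competent telogen (0.57 ± 0.25, adjusted p = 0.102) or early anagen (0.48 ± 0.25, adjusted p = 0.146). The mid-anagen call of Myh1 was lost without the second library of chin or of ventral skin (0.164 and 0.092) and in a fit on that stage alone (0.0836). For Myh2 it was 2.84 ± 0.26 in refractory telogen (adjusted p = 1.66e-09), 0.96 ± 0.26 in late anagen (adjusted p = 0.0121) and 0.93 ± 0.26 in catagen (adjusted p = 0.0338), and it was not called at the other stages. The late anagen call of Myh2 was lost without the first chin library (0.136) and the catagen call without any 1 of the 5 libraries (0.0675 to 0.202). For Myh7 it was 0.32 ± 0.10 in refractory telogen (adjusted p = 0.0122), lost without the second chin library (0.0867) or the second ventral library (0.0766). Without the ventral catagen library whose labels conflict, the catagen values were 3.85 for Myh4, 2.93 for Myh1 and 0.88 for Myh2 (adjusted p of 2.94e-09, 7.31e-07 and 0.202).

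In the ear, the myosins were higher in the cartilage/muscle complex than in ear skin, Myh3 among them. Myh1 was 375, 418 and 369 FPKM in the complex and 11.4 and 11.1 in ear skin, Myh2 139, 157 and 141 against 0.44 and 0.53, and Myh4 126, 141 and 124 against 18.7 and 18.6. Myh3 was 58.8, 68.5 and 56.5 FPKM in the complex and 0.12 and 0.04 in ear skin. Myh7 was 9.38, 10.6 and 9.05 against 0.11 and 0.07, and Myh8 7.06, 8.66 and 6.57 against 0.17 and 0.25. In this comparison limma called 66.5% of the 19299 genes tested. The log2 differences were 6.62 ± 0.09 for Myh2, 4.99 ± 0.07 for Myh1 and 2.74 ± 0.07 for Myh4 (adjusted p from 4.27e-08 to 4.08e-07). Myh3, Myh7 and Myh8 reached 0.5 FPKM in the 3 complex libraries only and passed the minimum through them, so that their differences of 5.85 ± 0.10, 3.29 ± 0.10 and 2.79 ± 0.13 are a description.

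**Figure D4:**
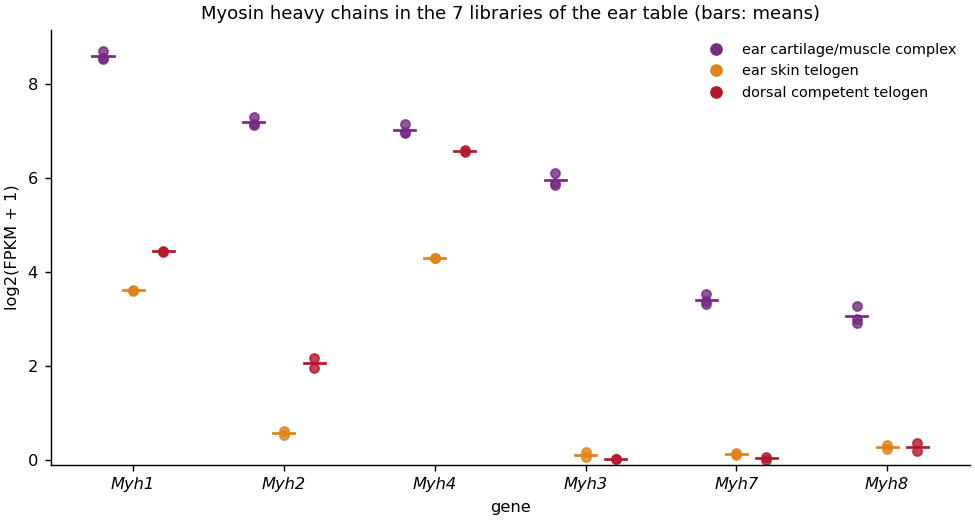
Levels of the 6 genes in the 7 libraries of the ear table, as log2(FPKM + 1), with a point for each library, a colour for each tissue and a bar at each mean. The 3 libraries of the ear cartilage/muscle complex are above the 4 skin libraries in every gene, by the least in Myh4 against dorsal skin.

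The make-up of the complex differed from that of any skin group as well. Myh1 held 52.2% ± 0.208 of the summed FPKM (SD, n = 3), Myh2 19.7% ± 0.208, Myh4 17.6% ± 0.0577, Myh3 8.25% ± 0.256, Myh7 1.30% ± 0.0208 and Myh8 0.999% ± 0.0753. In ear skin Myh4 held 60.7% ± 0.283 and Myh1 36.5% ± 0.354 (SD, n = 2). Against dorsal skin in competent telogen, where 71.1% of all genes were called, the complex was higher by 5.13 ± 0.10 on the log2 scale in Myh2 (adjusted p = 1.04e-07), 4.16 ± 0.07 in Myh1 (adjusted p = 5.76e-08) and 0.45 ± 0.07 in Myh4 (adjusted p = 0.0012). With median of ratios the difference of Myh4 was 0.05 (adjusted p = 0.449), while Myh1 and Myh2 stayed called. The differences of Myh3, Myh7 and Myh8, again a description, were 5.94 ± 0.10, 3.38 ± 0.10 and 2.79 ± 0.13. Ear skin minus dorsal skin, with 59.3% of all genes called, was -2.28 ± 0.07 for Myh4, -1.5 ± 0.10 for Myh2 and -0.83 ± 0.07 for Myh1 (adjusted p from 3.43e-06 to 0.000203). The last 2 comparisons share the dorsal libraries.

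The labels were set against marker genes. Cartilage markers summed to 742 to 788 FPKM in the complex and 37.2 to 38.1 in ear skin, and epidermal markers to 7.07 to 7.88 in the complex, where Ivl was listed at 0, and 8540 to 9100 in ear skin. Matn1, a cartilage matrix gene, was listed at 0 in ear skin and in 16 of the 18 skin groups. Every skin group held epidermal markers (2360 to 9240 FPKM). Sums of 10 sarcomere genes shared by all fibre types, such as Acta1, Ckm and Ttn, ran from 116 to 9970 FPKM in the skin libraries and from 14500 to 17500 in the complex. The 6 myosins amounted to 3.22% to 11.7% of that sum in the skin, 4.59% to 4.86% in the complex, and 11.6% and 11.7% in the dorsal catagen libraries, which stand apart from the other skin groups (3.22% to 7.39%). Markers of smooth muscle, a further contractile cell type of skin, summed to 58.0 to 59.3 FPKM in dorsal refractory telogen, to 225 to 257 in dorsal early anagen and to 225 to 255 in ventral competent telogen.

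**Figure D5:**
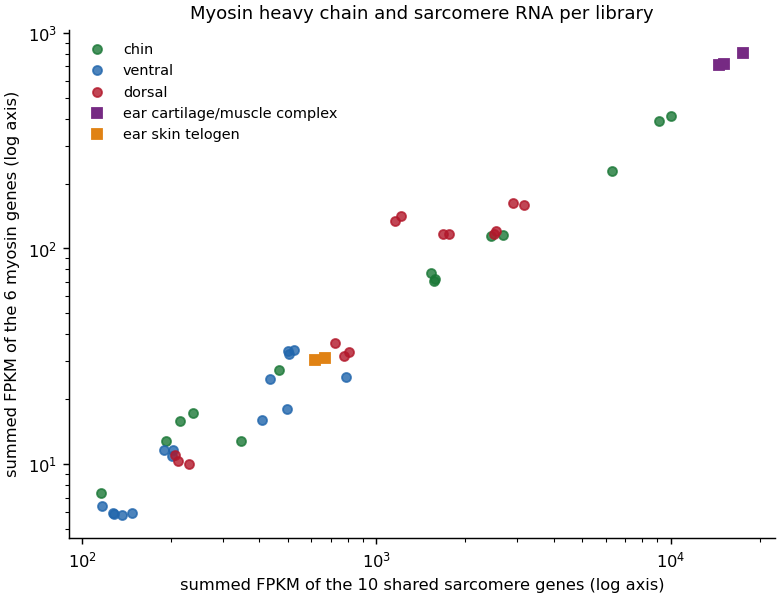
Summed FPKM of the 6 myosin genes against that of 10 shared sarcomere genes, both on log axes, with a point for each library and colours for domains and ear tissues. The libraries lie along a common band, with the dorsal catagen libraries, at 134 and 141 FPKM of myosin, above it.

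Genes that partner with the chains in each fibre type were read from lists. The 10 fast fibre genes encode fast light chains, troponins, the calcium pump of fast fibres and other fast proteins. The 10 slow fibre genes were listed as their slow counterparts. They summed to 172 to 185 FPKM in ventral late anagen, where Myh7 and Myl2 were listed at 0. Mybpc1, which is on this list, was among the 3 genes nearest to Myh1 over the skin groups (0.42). Whether each listed gene is particular to slow fibres in these tissues was not tested. In dorsal catagen against late anagen, 10 of 10 fast genes and 8 of 10 slow genes rose and none fell, with medians of 2.46 and 2.01 on the log2 scale against 0.00 over all genes, of which 38.7% were called. Among the slow genes Mybpc1 rose by 3.09, Tnnt1, slow troponin T, by 2.71, Myl2, the slow regulatory light chain, by 2.59 and Tnnc1, slow troponin C, by 2.52. Among the fast genes Tnnc2 rose by 3.54 and Tnni2 by 3.27. Over the stages together, 10 of 10 fast genes and 9 of 10 slow genes were lower in ventral than in dorsal skin and none higher (medians -2.35 and -0.94), against 0.00 over all genes, of which 37.5% were called.

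From dorsal competent telogen to early anagen, the step between the low and the high Myh7 values of these stages, 8 of 10 slow genes rose and 1 fell, with a median of 1.27 against 0.25 over all genes, of which 43.4% were called. Myl2 went from 0.085 to 5.38 FPKM (2.54 ± 0.45 on the log2 scale), Myl3 from 0.605 to 7.64 (2.43 ± 0.34) and Tnnc1 from 0.965 to 8.52 (2.28 ± 0.27). Of the 10 fast genes only Mylpf was called, with a rise of 0.78 ± 0.27, and their median was 0.04. Markers of smooth muscle rose in the same step (84.0 to 225 and 257 FPKM), and their part in the result was not tested. From dorsal catagen to refractory telogen 7 of 10 slow genes fell and none rose (median -1.53), while 4 of 10 fast genes rose and none fell (median 0.55). In this step 43.7% of all genes were called, so that the count of fast genes is near the share of all genes. Tnnc1 went from 16.4 to 0.175 FPKM and Tnni1, slow troponin I, from 29.0 to 3.56. Adipocyte markers went from 761 to 805 FPKM in catagen to at most 206 in refractory telogen, epidermal markers from 2360 to 2420 to 6410 to 6680, and smooth muscle markers from 111 to 118 to 58.0 to 59.3, and their part in the result was not tested.

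In the chin, where Myh7 stayed at or under 0.46 FPKM, 10 of 10 fast genes rose from catagen to refractory telogen, and 5 of 10 slow genes rose while 2 fell (medians of 2.22 and 0.78 against 0.09 over all genes, of which 48% were called). Tnnt1 rose by 2.53 ± 0.28 on the log2 scale and Tnni1 fell by 1.77 ± 0.13. From chin mid- to late anagen, 10 of 10 fast genes rose, with a median of 3.80, and 3 of 10 slow genes, with a median of 0.30, against -0.03 over all genes, of which 19.7% were called. The rise of adipocyte markers in this step is given above with the myosins. From ventral late anagen to catagen, 10 of 10 fast genes fell (median -2.26), while 2 slow genes, Tnnc1 and Myl3, rose and Mybpc1 fell (median 0.11), with 5.93% of all genes called. Pvalb, the calcium buffer of fast fibres, fell by 3.38 ± 0.36.

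Of the 10 genes listed for embryonic and regenerating muscle, 8 were tested in the skin and 7 in the ear table. The list holds the myogenic factors Myf6 and Myog and the cardiac and embryonic actin Actc1. Over the 18 skin groups, centred log2 means of Myf6 differed from those of the adult chain Myh2 by a root mean square of 0.42. Whether Myf6 marks embryonic or regenerating muscle in these tissues was not tested. From chin catagen to refractory telogen 7 genes of the list rose and none fell, where 48% of all genes were called. Among these, Actc1 rose by 2.61 ± 0.18 on the log2 scale, Myf6 by 1.86 ± 0.17 and Myog by 1.47 ± 0.16. In that step 10 of 10 fast and 10 of 10 shared sarcomere genes rose as well. Myh8 differed by -0.01 ± 0.20 and was not called (adjusted p = 0.997), and Myh3 was at most 0.07 FPKM. From dorsal competent telogen to early anagen 4 of 8 rose and 1 fell, where 43.4% of all genes were called, and Myog rose by 1.94 ± 0.19. In the ear complex against ear skin, 6 of 7 were higher, with Myf6 at 17.8 against 1.25 FPKM and Actc1 at 64.9 against 8.34. In that comparison 10 of 10 slow genes, 10 of 10 fast genes and 10 of 10 shared sarcomere genes were higher, with medians of 5.05, 3.73 and 4.25 against -0.11 over all genes, of which 66.5% were called.

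Against dorsal competent telogen, 10 of 10 slow genes were higher in the complex with a median of 4.46, whereas 7 of 10 fast genes were higher and 3 lower, with a median of 1.29, against 0.24 over all genes, of which 71.1% were called. Myl2 was 240.2 FPKM in the complex and 0.085 in dorsal skin, and Tnnt1 638 and 4.29. Ear skin was lower than dorsal skin in 10 of 10 fast genes (median -2.26), and 3 of 10 slow genes were higher and 3 lower (median 0.02), near the 59.3% of all genes called. Of 8 other myosin heavy chains, 5 were tested. All 5 were higher in the complex than in ear skin, with a median of 0.55 against -0.11 over all genes. In that comparison 66.5% of all genes were called. The largest difference was that of Myh10, a nonmuscle myosin, by 2.74 ± 0.09.

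Likeness was measured over the 18 skin groups, as the root mean square difference of centred log2 group means. The genes nearest to Myh4 were Actn3, the alpha-actinin of fast fibres, at 0.27, Tnni2, fast troponin I, at 0.31 and Tnnt3, fast troponin T, at 0.32, where the profile of Myh4 itself had a root mean square of 1.83. Nearest to Myh1 were Actn2 at 0.29, Myot at 0.39 and Mybpc1 at 0.42 (its own being 1.47). Nearest to Myh2 were Cox7a1, a muscle form of a cytochrome c oxidase subunit, at 0.36, Myf6 at 0.42 and Tmod1 at 0.44 (its own being 1.12). For Myh7 they were Myo1h, Sardhos and Dyrk1a at 0.22 to 0.27 (its own being 0.58), for Myh8 Actg-ps1, 4833427F10Rik and Gm32460 at 0.18 to 0.19 (its own being 0.30). For Myh3, whose profile had a root mean square of 0.02, the nearest genes (Zfp526, Gm10192 and Gm6793) were 0.06 to 0.07 away, farther than a flat profile. Among the members, Myh1 and Myh2 were 0.74 apart, Myh1 and Myh4 0.94, and Myh4 and Myh7 1.74.

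The sequences of these genes limit how reads are divided among them. Of all windows of 50 bases in the longest transcript, 26.7% of those of Myh1, 26.9% of Myh2, 18.9% of Myh4, 21.4% of Myh8, 22.2% of Myh7 and 4.81% of Myh3 recurred in another striated myosin heavy chain. Myh1 and Myh2 shared 19.7% of their windows with each other, and Myh7 shared 22.2% with Myh6. Reads from such windows are divided by the model of RSEM, so that small shares of a member beside an abundant neighbour are uncertain. The library kit does not mark strand, and Myh1, Myh2 and Myh7 overlap antisense genes, with 515 exonic bases shared between Myh1 and Myhas, 237 between Myh2 and 9430073C21Rik, and 523, 484 and 142 between Myh7 and Gm31251, Mhrt and Gm29015.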

How the data were processed

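RNA of whole skin and of ear tissue was isolated with a column kit, reverse transcribed and amplified by SMART-seq2, and made into unstranded paired-end Nextera libraries. Per the labels and the study's methods, the authors aligned to mm10 with GENCODE vM8 genes, quantified with RSEM 1.2.25 and deposited the FPKM values of each library in 2 tables, described as corrected for batch by a step that is not given in the sources used here. No deposited column was left out. What was done with the tables here is as follows. log2(FPKM + 1) was fitted with limma 3.58.1 in R 4.3.3, with a variance trend, over the 43 skin libraries in 1 fit of 18 groups and over the 7 ear table libraries in another. Genes at 0.5 FPKM or more in 2 libraries entered (21257 and 19299), p-values were adjusted after Benjamini-Hochberg over all genes within each of 43 comparisons, and the threshold was 0.05. Depth was estimated from the steps between FPKM values of single-transcript genes. The 36 pairs of replicate libraries differed by 1.41 to 5.99 times the counting variance, so that none was counted as a duplicate. The 6 myosin genes and the lists (fast fibre, slow fibre, embryonic and regenerating muscle, shared sarcomere, other myosin heavy chains, smooth muscle, cartilage, epidermis and adipocyte) were chosen with earlier results of these data known. Of a list, at most the 4 called members with the largest absolute log2 difference were named, and likeness named the 3 nearest tested genes outside the 6, while marker genes listed at 0 were named after their values were seen. Alternatives were a pseudocount of 0.1, no filter, TPM, median of ratios, no variance trend, a replicate block, a fit per stage, dorsal refractory telogen as the dorsal group of the ear table, shares from group means, and leaving out each library in turn. Descriptions and figures used Python 3.11.15, pandas 2.3.3, numpy 2.4.6, scipy 1.17.1 and matplotlib 3.10.9. The scripts were tested on simulated data.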

Additional observations from a re-analysis of the deposited data

Results flagged for a closer look

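The change over the 6 stages differed between chin, ventral and dorsal skin in the interaction test of limma for all 5 members tested. The adjusted p was 5.49e-17 for Myh4, 1.47e-14 for Myh1, 4.88e-14 for Myh7, 4.43e-10 for Myh2 and 0.0017 for Myh8. For Myh4 and Myh1 the peak was in chin refractory telogen within the chin, in late anagen (Myh4) or mid-anagen (Myh1) within ventral skin, and in competent telogen (Myh4) or early anagen (Myh1) within dorsal skin. The high values of Myh7 are those of dorsal catagen and dorsal early anagen, the groups through which it passed the minimum level for testing, so that its p-value is no support, and the high value of Myh8 is the second library of ventral mid-anagen.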

How the results depend on the processing

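Counts of called members kept within 1.5 times of their value under every alternative run, and no called difference changed sign. Leaving out 1 library at a time gave 11 to 13 calls for the domain differences over all stages, 52 to 57 for those at single stages (55 with all libraries), 11 to 13 for the stage tests, 34 to 43 for the steps (36), 5 for the interaction, 15 for the ear, and 11 to 12 skin groups with the highest mean share in Myh4. These counts include Myh7, and Myh3, Myh7 and Myh8 in the ear, which passed the filter through the groups where they are high. Of 133 called results, 24 lost their call without some library. A pseudocount of 0.1 ended 2 of 133 calls, no filter 3, TPM 2, median of ratios 2, no variance trend 0, and a fit per stage 7 of 51, and each is given beside its result. The fit per stage could not retest the Myh7 calls of late anagen and refractory telogen, where no library reached 0.5 FPKM. The replicate block ended 0 of 124 calls and left 55 stage calls and 36 step calls. Over all group pairs, the deviations of libraries with the same replicate number correlated by more than 0.1 in 5 of 153 pairs (from -0.17 to 0.16). Domains of the same stage were not looked at apart, so that a mouse shared between them was not tested for. In the ear table the block was run for the complex against dorsal skin only, since the ear skin columns do not carry the replicate numbers of the labels. A pseudocount of 0.1 added 11 calls, 9 of them in Myh8, and without a filter 7 were added, all in Myh3 at 0.07 FPKM or less, where depth limits what can be read. With 2 libraries in most groups and an unnamed batch correction, spread between animals cannot be told apart from that between libraries.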
